A study of Mus musculus with 13 samples.

Results

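The collagen genes are the 44 protein-coding mouse genes whose symbol consists of Col, a number, the letter a and a second number, such as Col1a1, among 21887 protein-coding genes on the placed chromosomes. The rule uses the name alone and no measured value. For each gene, peaks of chromatin immunoprecipitation followed by sequencing (ChIP-seq) were counted in a window that ran from 20 kb before the gene to 20 kb after it, in all 12 deposited peak lists. A list stands for 1 library, and each group had 1 library.

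The study followed fibroblasts on their way to pluripotency and asked whether co-repressors hold that process back. H3K27ac, the acetylation of lysine 27 on histone H3 found at active promoters and enhancers, was mapped in untreated mouse embryonic fibroblasts (MEFs) of strain C57BL/6J-OG2, whose OG2 transgene reports on Oct4 activity. It was also mapped in MEFs of that strain transduced with OCT4, SOX2, KLF4 and c-MYC, together called OSKM, at days 5, 9 and 13, together with either HDAC3-YF or a FLAG control, and in untreated embryonic stem cells (ESCs) of strain C57BL/6J. HDAC3-YF is a mutant of the histone deacetylase HDAC3 that lacks catalytic activity. The co-repressors NCoR and SMRT, which bind and activate HDAC3, were mapped in OSKM cultures at day 9, whose labels name neither plasmid, and in ESCs. The labels call the OSKM cells transfected and the protocol describes viral transduction. The labels give these cells as presumed intermediates and the protocol names no sort, so each such culture may be a mixture. MEFs and ESCs differ in strain as well as in cell type, and these cannot be told apart. With no replicate there was no test between groups, and a gene is called different here when its window held at least 2 peaks more or fewer.

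Collagens are triple-helical proteins of the extracellular matrix. Fibrillar collagens form the load-bearing fibres that fibroblasts secrete, type IV collagen forms the sheet of basement membranes, and other members coat fibrils, form beaded filaments or span the plasma membrane. Their genes are long, with many small exons, and in fibroblasts their transcription depends on promoter elements and on enhancers within and around the gene. The median window of the 44 genes was 154.4 kb, against 57.16 kb over all protein-coding genes. Counts are therefore also set beside those of 5045 other genes whose windows were of like length (75.5 to 184 kb). The median of these windows was 101.2 kb, so the collagen windows were still longer.

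The promoters of 35 of the 44 genes had an entry in the RefSeq promoter table of GRCm38.p6, whose coordinates are those of mm10. Each entry runs 5′ to 3′ and its base 251 is the start site. The 4 promoters shown are those of the loci on which the results turn. They come from Col4a1 (a start still marked in every list), Col1a2 (a fibroblast fibril gene whose start was marked in some libraries only), Col5a3 (a locus marked in MEFs alone) and Col13a1 (a locus marked in ESCs alone). Capitals mark the CCAAT box (CCAAT or ATTGG) and the GC box (GGGCGG or CCGCCC), read on both strands. No other searched motif occurred in these 4.
Col4a1, chr8:11312777-11313076, minus strand: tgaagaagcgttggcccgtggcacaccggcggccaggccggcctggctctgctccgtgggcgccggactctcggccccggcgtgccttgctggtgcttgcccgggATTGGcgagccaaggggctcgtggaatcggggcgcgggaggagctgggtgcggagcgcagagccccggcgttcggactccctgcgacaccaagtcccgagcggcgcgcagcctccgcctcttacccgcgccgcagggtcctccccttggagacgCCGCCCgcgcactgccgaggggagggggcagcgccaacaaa
Col1a2, chr6:4505368-4505667, plus strand: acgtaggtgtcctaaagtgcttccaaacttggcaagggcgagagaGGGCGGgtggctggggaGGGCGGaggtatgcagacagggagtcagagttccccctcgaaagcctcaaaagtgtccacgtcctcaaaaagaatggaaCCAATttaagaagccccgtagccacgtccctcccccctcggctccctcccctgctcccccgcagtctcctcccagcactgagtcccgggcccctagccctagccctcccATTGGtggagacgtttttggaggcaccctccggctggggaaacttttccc
Col5a3, chr9:20815018-20815317, minus strand: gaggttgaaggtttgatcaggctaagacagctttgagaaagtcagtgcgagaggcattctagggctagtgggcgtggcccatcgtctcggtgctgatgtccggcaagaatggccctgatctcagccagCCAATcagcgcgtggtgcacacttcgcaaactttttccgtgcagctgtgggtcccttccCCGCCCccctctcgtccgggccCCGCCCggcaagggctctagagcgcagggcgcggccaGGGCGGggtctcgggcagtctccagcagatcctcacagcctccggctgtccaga
Col13a1, chr10:61979059-61979358, minus strand: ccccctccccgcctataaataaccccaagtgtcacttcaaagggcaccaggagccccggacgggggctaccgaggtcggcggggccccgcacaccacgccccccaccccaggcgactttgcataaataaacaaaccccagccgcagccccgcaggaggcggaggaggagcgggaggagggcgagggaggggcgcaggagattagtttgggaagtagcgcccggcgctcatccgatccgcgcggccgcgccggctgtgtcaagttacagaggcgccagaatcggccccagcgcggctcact

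Over the 35 collagen promoters, the GC box, bound by SP-family factors, was found in 22 (62.9%), against 46.3% of 17492 promoters of all protein-coding genes with an entry. The CCAAT box was found in 12 (34.3%), against 39.0% of all promoters. The AP-1 motif TGANTCA, which reads TGANTCA on the other strand too, was found only in Col6a1 (2.86%), against 7.08% of all. The palindromic E-box CACGTG, the preferred site of MYC, was found in 0 of 35, against 7.90% of all. No motif of the 4 contains another. The median GC content of the 35 promoters was 60%, against 56.33% of all promoters.

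In MEFs, collagen genes had more H3K27ac peaks per window on average than genes of like length, and in every other library fewer. The windows of like length had a shorter median, 101.2 kb against 154.4 kb, so these counts are not densities. Summed over the 44 windows, the MEF list had 119 peaks, the day 5 lists 44 with HDAC3-YF and 44 with FLAG, the day 9 lists 34 with HDAC3-YF and 40 with FLAG, the day 13 lists 29 with HDAC3-YF and 40 with FLAG, and the ESC list 37. A peak shared by neighbouring collagen genes counts once for each of them. The mean was 2.70 peaks per collagen gene in MEFs, against 1.75 over all genes and 2.205 over genes of like length. In ESCs it was 0.841 peaks per collagen gene, against 1.81 over all genes and 2.22 over genes of like length. The 6 OSKM lists gave means between 0.659 and 1 per collagen gene, where all genes gave between 1.197 and 1.284 and genes of like length between 1.38 and 1.54.

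The lists differ in length, from 14251 peaks at day 13 with HDAC3-YF to 26591 in MEFs, so counts were also taken as shares of a list. Collagen windows held 0.137% of all ESC peaks (35 of 25499, 95% Wilson interval 0.0987 to 0.191%) and 0.429% of all MEF peaks (114 of 26591, 0.357 to 0.515%). The shares in OSKM lists lay between, from 0.196% (0.136 to 0.284%) at day 13 with HDAC3-YF to 0.256% (0.188 to 0.348%) at day 5 with FLAG. All 6 OSKM intervals lay below that of MEFs, and each overlapped that of ESCs. These intervals hold counting error alone, not the spread between cultures. In such bulk cultures, fewer cells with the mark and less of the mark per cell cannot be told apart.

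**Figure D1:**
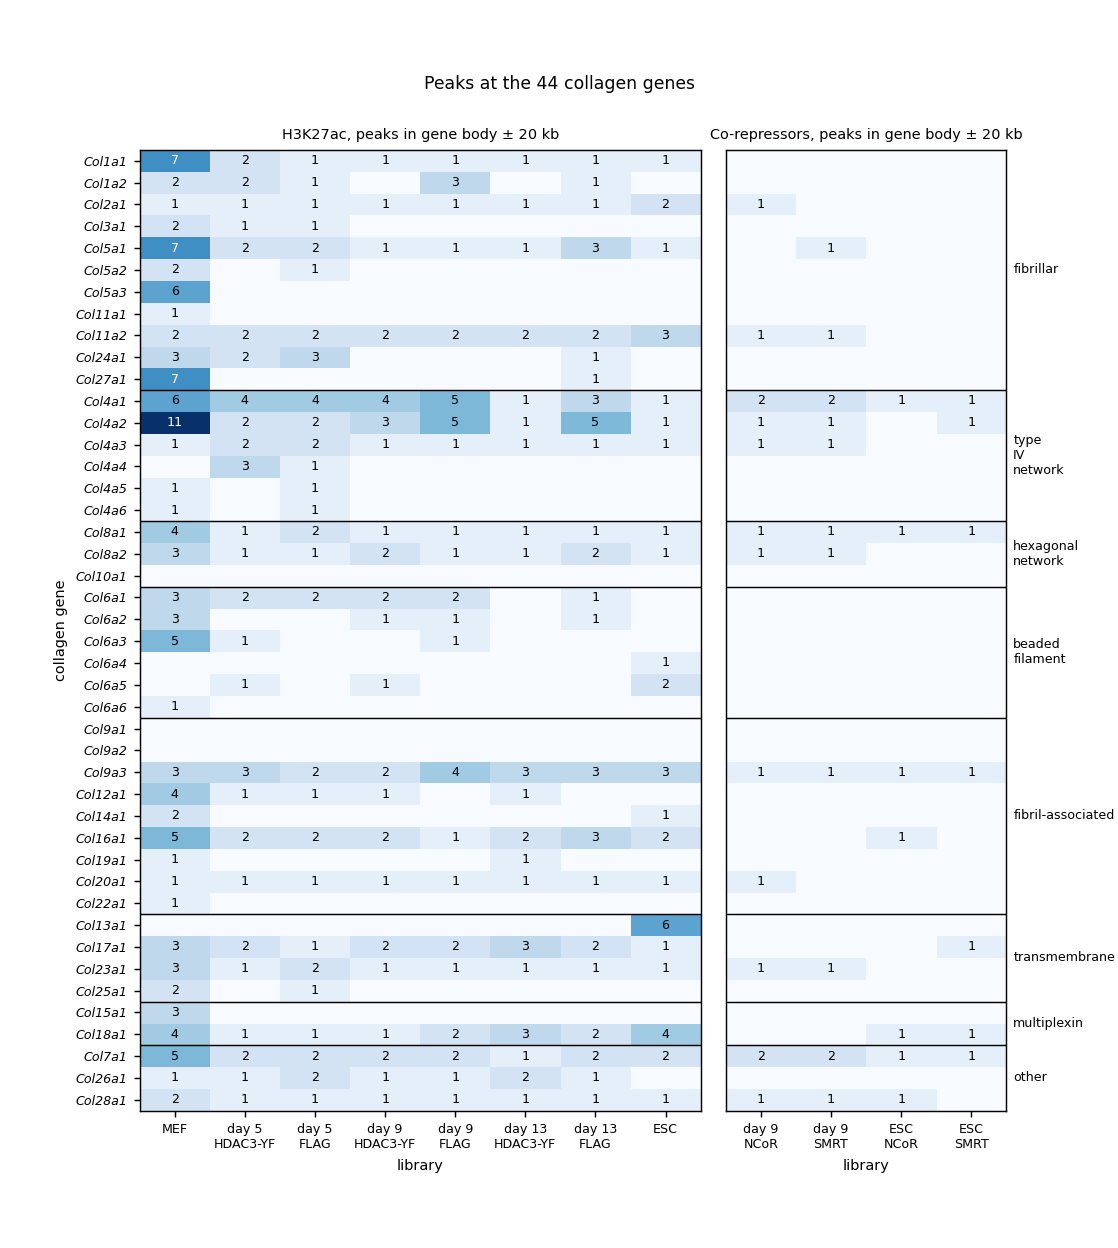
Number of peaks in the gene window (gene body with flanks of 20 kb; colour and digit, empty for 0) for each of the 44 collagen genes (rows, grouped by structural class) in the 8 H3K27ac lists (left) and the 4 co-repressor lists (right). The MEF column is filled for 37 genes and reaches 11 peaks at Col4a2, while Col13a1 is filled in the ESC column alone.

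Set against MEFs, ESCs had fewer H3K27ac peaks at 31 of the 44 collagen genes, more at 5 and the same number at 8 (background 22.7% fewer and 27.8% more, and 31.1% fewer and 31.5% more in genes of like length). At least 2 fewer peaks were found at 22 genes (50.0%), against a background of 10.3% of all genes and 16.0% of genes of like length. At least 2 more were found at 2 genes (4.55%), Col13a1 and Col6a5, against a background of 12.8% and 16.7% of genes of like length. The median difference was -1.5 peaks per collagen gene and 0 over all genes. When only the 14251 best-scored peaks of each list were used, both shares were lower and the collagen share was still the higher. Then 12 collagen genes (27.3%) had at least 2 fewer, against 5.22% of all genes.

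At least 1 peak was found in ESCs at 21 collagen genes (47.7%, background 68.0%) and in MEFs at 37 (84.1%, background 68.6%). In OSKM cultures it was 26 with HDAC3-YF and 28 with FLAG at day 5 (background 61.5% for each), 22 with HDAC3-YF (61.2%) and 22 with FLAG (62.3%) at day 9, and 20 with HDAC3-YF (63.3%) and 23 with FLAG (62.5%) at day 13. As shares of the 44 genes the OSKM lists ran from 45.5% to 63.6%. Genes of like length had a peak in 80.2% of cases in ESCs, 73.4 to 76.3% in OSKM lists and 82.3% in MEFs, so MEFs were near the level of such genes and the other libraries below it.

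The low counts were already present at day 5. At least 2 fewer peaks than in MEFs were found at 19 collagen genes at day 5 with HDAC3-YF (background 13.5%) and at 17 with FLAG (background 13.9%). At day 9 the counts were 21 with HDAC3-YF (background 13.7%) and 20 with FLAG (background 12.4%), and at day 13 they were 22 with HDAC3-YF (background 14.8%) and 21 with FLAG (background 13.7%). Among genes of like length the shares with at least 2 fewer were higher than over all genes, 19.5 to 22.5%, against 38.6 to 50.0% of collagen genes. These 6 comparisons and that of ESCs share the MEF library. At equal list lengths the counts were between 9 and 13 collagen genes (20.5 to 29.5%), against 2.65 to 3.66% of all genes. Only Col4a4, at day 5 with HDAC3-YF, had at least 2 more peaks than in MEFs (background 2.29%), and the other 5 OSKM lists had no such gene. Their backgrounds were 1.54% at day 5 with FLAG, 1.40% with HDAC3-YF and 1.66% with FLAG at day 9, and 1.68% with HDAC3-YF and 1.39% with FLAG at day 13. An OSKM list exceeded MEFs at 6 collagen genes (13.6%, background 25.2% and 28.8% of genes of like length). MEFs exceeded every OSKM list at 25 (56.8%, background 19.0% and 26.9% of genes of like length).

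Markers of ESCs, of fibroblasts and of cell types that the labels do not name were counted in the same way. The 8 ESC markers had 53 peaks in ESCs, 2 to 7 in OSKM lists and 4 in MEFs. The 8 fibroblast markers had 4 peaks in ESCs, 6 to 13 in OSKM lists and 26 in MEFs. Fap, Pdgfrb and Postn were at 0 in all OSKM lists. S100a4 had 2 to 5 in OSKM lists, against 3 in MEFs, and Twist1 had 1 to 3, against 3. Prrx1 had 1 to 5 in OSKM lists, against 7 in MEFs, Twist2 0 to 2, against 5, and Thy1 0 or 1, against 3. The 4 endothelial markers had 6 peaks in ESCs, 2 to 8 in OSKM lists and 10 in MEFs. Among them Tek went the other way, with 1 in ESCs, 1 to 4 in OSKM lists and 0 in MEFs. Of the 5 epithelial markers the sums were 20 in ESCs, 8 to 13 in OSKM lists and 7 in MEFs. ESCs had more than MEFs at 3 of these, with 12 peaks at Cdh1, and fewer at 2, Krt8 and Krt18. The 4 chondrocyte markers had 1 peak in ESCs, 0 or 1 in OSKM lists and 1 in MEFs, and Matn1 was at 0 throughout. The 3 haematopoietic markers had 7 in ESCs, 4 to 7 in OSKM lists and 8 in MEFs, most of those in ESCs and OSKM lists at Cd68. The part of the cell make-up in the collagen counts was not tested.

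The fibrillar collagens, 11 genes, made up the largest class. Their peaks summed to 40 in MEFs, to 12 with HDAC3-YF and 12 with FLAG at day 5, to 5 with HDAC3-YF and 8 with FLAG at day 9, to 5 with HDAC3-YF and 10 with FLAG at day 13, and to 7 in ESCs. ESCs had at least 2 fewer peaks than MEFs at 8 of the 11, against 10.3% of all genes and 16.0% of genes of like length. Col1a1 encodes the major chain of type I collagen, the chief fibre of skin and bone. Its window had 7 peaks in MEFs, 2 at day 5 with HDAC3-YF, 1 in each of the other 5 OSKM lists and 1 in ESCs. The single ESC peak lay in the flank, 5300 bp beyond the nearer end of the gene.

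Col1a2 encodes the second chain of type I collagen. It had 2 peaks in MEFs, 2 with HDAC3-YF and 1 with FLAG at day 5, 0 with HDAC3-YF and 3 with FLAG at day 9, 0 with HDAC3-YF and 1 with FLAG at day 13, and 0 in ESCs. Both MEF peaks had the ceiling score of 200 in the authors' list, 1 of them 169 bp from the start site of the promoter shown and the other in the upstream flank. The mark at its start was present in all 3 FLAG lists and, of the HDAC3-YF lists, at day 5 alone. Col3a1, the type III chain of stretchable tissues, had 2 in MEFs, 1 in each day 5 list, and 0 in the 4 later OSKM lists and in ESCs. Only that early pair of OSKM libraries held a peak at the gene, and neither peak had a MEF peak within 1 kb.

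Type V collagen starts type I fibrils and limits their width. Col5a1 had 7 peaks in MEFs, 2 in each day 5 list, 1 in each day 9 list, 1 with HDAC3-YF and 3 with FLAG at day 13, and 1 in ESCs. Its ESC peak was at the start, whereas 6 of its 7 MEF peaks lay further than 1 kb from it. Col5a2 had 2 in MEFs, 1 at day 5 with FLAG, and 0 in the other 5 OSKM lists and in ESCs. Col5a3, whose promoter is shown, had 6 in MEFs and 0 in all 6 OSKM lists and in ESCs. Its best-scored MEF peak, at the ceiling, lay in the neighbouring gene Rdh8, so the window count holds more than the gene itself. Col27a1, a fibrillar collagen of cartilage, had 7 in MEFs, 1 at day 13 with FLAG, at its start, and 0 in the other 5 OSKM lists and in ESCs.

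Col24a1, a minor fibrillar collagen of bone, had 3 peaks in MEFs, 2 at day 5 with HDAC3-YF, 3 at day 5 with FLAG, 1 at day 13 with FLAG and 0 in the remaining lists. Its 5 peaks of day 5 lay more than 1 kb from any MEF peak. Col11a1, of cartilage fibrils, had 1 peak in MEFs and 0 elsewhere. Col2a1, the main cartilage collagen, had 1 in MEFs, 1 in every OSKM list and 2 in ESCs. Its partner Col11a2 had 2 in MEFs, 2 in every OSKM list and 3 in ESCs. Once peaks within 1 kb of another gene's start were left out, a setting chosen after the data were seen, both stood at 0 in MEFs and all OSKM lists, and only Col2a1 kept a peak, 1 in ESCs.

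The type IV class, 6 genes, had 20 peaks in MEFs, 11 with HDAC3-YF and 11 with FLAG at day 5, 8 with HDAC3-YF and 11 with FLAG at day 9, 3 with HDAC3-YF and 9 with FLAG at day 13, and 3 in ESCs. Col4a1 and Col4a2, which encode the chains of nearly all basement membranes, lie head to head on chromosome 8 and their windows overlap. Col4a1 had 6 peaks in MEFs, 4 in each day 5 list, 4 with HDAC3-YF and 5 with FLAG at day 9, 1 with HDAC3-YF and 3 with FLAG at day 13, and 1 in ESCs. Col4a2 had 11 in MEFs, the highest count of the 44 genes in any list, 2 in each day 5 list, 3 with HDAC3-YF and 5 with FLAG at day 9, 1 with HDAC3-YF and 5 with FLAG at day 13, and 1 in ESCs.

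One mark at the type IV pair was common to all 8 H3K27ac lists, and it sat on the shared start. Its centre was 5 bp from the Col4a2 start in ESCs and 11 bp from the Col4a1 start in MEFs, where both peaks had the ceiling score, and at most 196 bp from the nearer start in OSKM lists. At day 13 with HDAC3-YF and in ESCs it was the only peak of either window. A second mark recurred in OSKM cultures alone. Centres between 85562 and 85898 bp from the Col4a2 start, within the Col4a1 body, carried a peak at day 5 with HDAC3-YF and with FLAG, at day 9 with both and at day 13 with FLAG. Neither ESCs nor MEFs had a peak within 1 kb of it.

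**Figure D2:**
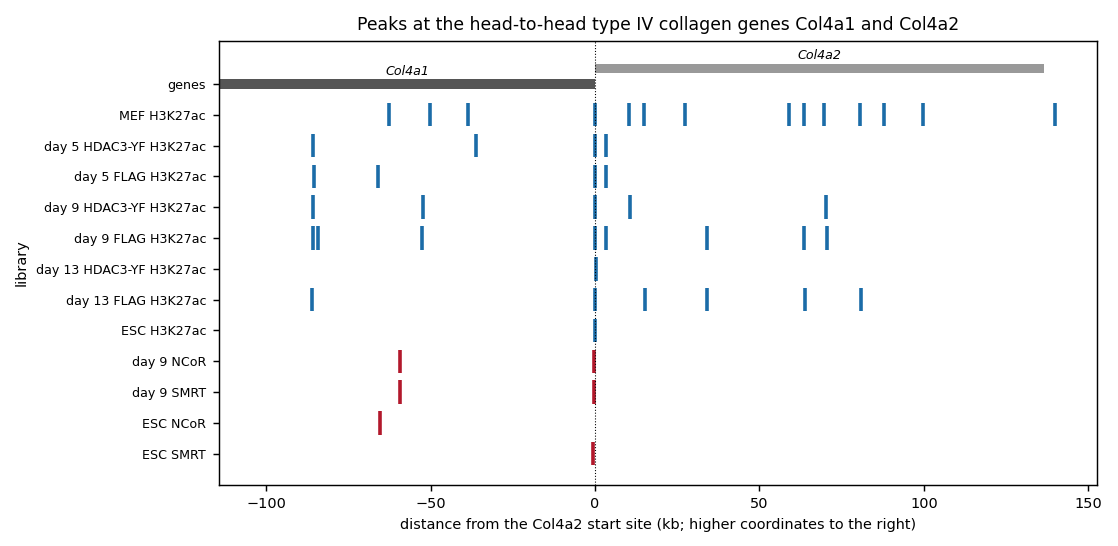
Positions of peaks (ticks) at the head-to-head genes Col4a1 and Col4a2 in each of the 12 lists, as distance in kb from the Col4a2 start site, with gene bodies on top. The tick at 0 is present in all 8 H3K27ac rows, the Col4a2 body holds most MEF ticks, and the rows of day 13 HDAC3-YF and ESC show the start alone.

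The other type IV chains form the networks of kidney glomeruli and a few other membranes. Col4a4 had 0 peaks in MEFs, 3 with HDAC3-YF and 1 with FLAG at day 5, and 0 in the later OSKM lists and in ESCs. Col4a3 had 1 peak in MEFs, 2 in each day 5 list, 1 in each later OSKM list and 1 in ESCs, and the recurring peak was at the start of the neighbour Mff. Col4a5 and Col4a6, a second head-to-head pair on the X chromosome, each had 1 in MEFs, 1 at day 5 with FLAG and 0 elsewhere.

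Collagen VI forms beaded filaments. The 6 genes had 12 peaks in MEFs, 4 with HDAC3-YF and 2 with FLAG at day 5, 4 in each day 9 list, 0 with HDAC3-YF and 2 with FLAG at day 13, and 3 in ESCs. Col6a1, Col6a2 and Col6a3 encode the chains of the common microfibril around cells. Col6a1 had 3 in MEFs, 2 in each list of days 5 and 9, 0 with HDAC3-YF and 1 with FLAG at day 13, and 0 in ESCs. Col6a2 had 3 in MEFs, 0 in both day 5 lists, 1 in both day 9 lists, 0 with HDAC3-YF and 1 with FLAG at day 13, and 0 in ESCs. Col6a3 had 5 in MEFs, 1 with HDAC3-YF and 0 with FLAG at day 5, 0 with HDAC3-YF and 1 with FLAG at day 9, and 0 at day 13 and in ESCs. These 3 genes had their highest counts in MEFs and none in ESCs. Col6a5, a further chain of the type, went the other way, with 0 in MEFs, 1 at day 5 and 1 at day 9 with HDAC3-YF, and 2 in ESCs. Col6a4 had 1 in ESCs, from a peak shared with Col6a5, and Col6a6 had 1 in MEFs.

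Fibril-associated collagens sit on the surface of fibrils. The 9 genes had 7 peaks in ESCs, 6 to 8 in OSKM lists and 17 in MEFs. Col12a1, of tendon and other dense tissue, had 4 in MEFs, 1 in each day 5 list, 1 with HDAC3-YF and 0 with FLAG at both later days, and 0 in ESCs. Col16a1 had 5 in MEFs, 2 in each day 5 list, 2 with HDAC3-YF and 1 with FLAG at day 9, 2 with HDAC3-YF and 3 with FLAG at day 13, and 2 in ESCs. Col9a3, a cartilage collagen, had 3 in MEFs, 3 with HDAC3-YF and 2 with FLAG at day 5, 2 with HDAC3-YF and 4 with FLAG at day 9, 3 in each day 13 list and 3 in ESCs. Its partners Col9a1 and Col9a2 had no peak in any list, and neither had Col10a1 of the hexagonal class. These 3 genes were 6.82% of the 44, against a background of 23.3% of genes with no H3K27ac peak in any list and 10.1% of genes of like length, which is near the collagen share. The remaining 4 genes of the class, Col14a1, Col19a1, Col20a1 and Col22a1, had at most 2 peaks in any list.

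Transmembrane collagens, 4 genes, were the class in which ESCs did not fall short of MEFs, with 8 peaks in ESCs, 3 or 4 in OSKM lists and 8 in MEFs. That sum rested on Col13a1, known from neuromuscular junctions, with 6 peaks in ESCs and 0 in all 6 OSKM lists and in MEFs. Of the 6 peaks, 1 lay 695 bp from its start, 2 lay in the body 48545 and 50045 bp from it, and 3 lay in the flank beyond the far end. Col17a1, the collagen of epithelial hemidesmosomes, had 1 in ESCs, 1 to 3 in OSKM lists and 3 in MEFs. A flanking peak 13397 to 13742 bp from its start, with no MEF peak within 1 kb, was found in ESCs, in all 3 HDAC3-YF lists and at day 5 with FLAG. Col23a1 had 1 in ESCs, 2 at day 5 with FLAG and 1 in the other 5 OSKM lists, and 3 in MEFs. Col25a1 had 0 in ESCs, 1 at day 5 with FLAG and 2 in MEFs.

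The multiplexins Col15a1 and Col18a1 are proteoglycan-like collagens of basement membrane zones. Col18a1, the source of endostatin, had 4 peaks in MEFs, 1 in each day 5 list, 1 with HDAC3-YF and 2 with FLAG at day 9, 3 with HDAC3-YF and 2 with FLAG at day 13, and 4 in ESCs. The equal ESC and MEF counts were in part at different places, since 2 of the 4 ESC peaks, both in the flank beyond its start, had no MEF peak within 1 kb. The difference therefore depended on the window, at -2 in the gene body and 2 within 20 kb around the start. Col15a1 had 0 in ESCs and in every OSKM list and 3 in MEFs.

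Col8a1, a network collagen of cornea and vessel wall, had 1 in ESCs, 1 or 2 in OSKM lists and 4 in MEFs, and its partner Col8a2 had 1 in ESCs, 1 or 2 in OSKM lists and 3 in MEFs. Col7a1, of the anchoring fibrils of skin, had 2 in ESCs, 1 or 2 in OSKM lists and 5 in MEFs. Without peaks within 1 kb of other genes' starts, Col7a1 had 0 in ESCs and in all OSKM lists and 3 in MEFs. Col8a1 then had 0 in ESCs, 1 at day 5 with FLAG, 0 in the other OSKM lists and 3 in MEFs. Col8a2 then had 0 in ESCs, 0 or 1 in OSKM lists and 2 in MEFs. Col28a1 had 1 in ESCs, 1 in each OSKM list and 2 in MEFs, with 1 peak of every list at a neighbouring gene's start. Col20a1 had 1 in each of the 8 lists, again at a neighbour's start. Col26a1 had 0 in ESCs, 1 or 2 in OSKM lists and 1 in MEFs.

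The MEF marks lay mostly inside and around the genes, away from their starts. Of 114 distinct MEF peaks in the windows, 77 were in a collagen gene body, and 82 (71.9%, 63.1 to 79.4%) were further than 1 kb from any gene start, against 60.8% of all MEF peaks. In ESCs 8 of 35 peaks were in a collagen body, and 15 (42.9%, 28.0 to 59.1%) were away from starts, against 59.3% of all ESC peaks. Counts in collagen bodies were 19 with HDAC3-YF and 18 with FLAG at day 5, 12 with HDAC3-YF and 15 with FLAG at day 9, and 9 with HDAC3-YF and 18 with FLAG at day 13. Peaks at other genes' starts were 16 in ESCs, 14 to 16 in OSKM lists and 14 in MEFs. For 9 genes without a promoter entry (Col1a1, Col2a1, Col4a3, Col5a2, Col9a3, Col12a1, Col14a1, Col22a1 and Col26a1) both annotated ends were used as possible starts.

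**Figure D3:**
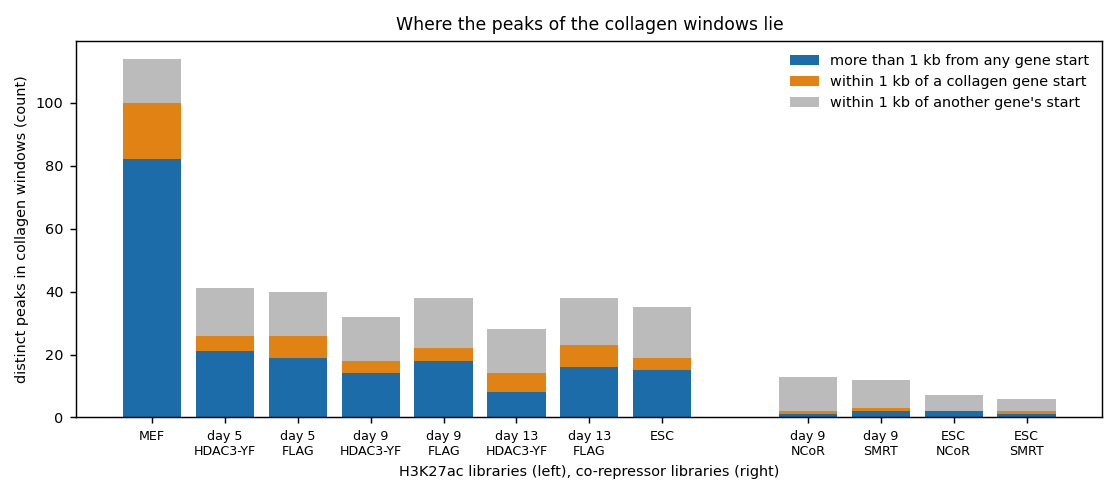
Distinct peaks in the collagen windows in each list (bar height, count), split by place: further than 1 kb from any gene start, within 1 kb of a collagen gene start, or within 1 kb of another gene's start. The part at other genes' starts stays between 14 and 16 in the 8 H3K27ac lists, while the part away from starts is 82 in MEFs and 21 or less elsewhere.

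Single MEF peaks were then followed. A MEF peak was counted as kept where another list had a peak with its centre within 1 kb. ESCs kept 19 of the 114 (16.7%, 10.9 to 24.6%), against 45.1% of all MEF peaks. The day 5 lists kept 27 with HDAC3-YF and 27 with FLAG, the day 9 lists 27 with HDAC3-YF and 29 with FLAG, and the day 13 lists 22 with HDAC3-YF and 34 with FLAG. As shares these were 19.3 to 29.8%, against 41.1 to 48.0% of all MEF peaks. No OSKM list kept 64 of the 114, and none of those 64 was in ESCs. All 6 OSKM lists kept 15, of which 13 were at the starts of other genes, 1 was the shared start of Col4a1 and Col4a2, and 1 lay near Mrgbp in the window of Col9a3. No share of all MEF peaks is given beside the 64 and the 15, so neither count marks a trait of collagen windows. The median score of MEF peaks was 30.33 in collagen windows and 37.72 over the whole list. The part of the score in the kept shares was not tested.

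Place separated what was kept. All 14 MEF peaks at other genes' starts were kept in ESCs and in 5 OSKM lists, and 13 of the 14 at day 13 with HDAC3-YF. Over all 10433 MEF peaks at gene starts, ESCs kept 87.7% and OSKM lists 80.5 to 84.6%, so the neighbours' starts were near the usual share. Of the 18 at collagen starts, ESCs kept 3 (16.7%, 5.84 to 39.2%) and OSKM lists 4 to 7 (22.2 to 38.9%), below those shares of all start peaks. Of the 82 away from starts, ESCs kept 2 (2.44%, 0.671 to 8.46%), against 17.6% of all MEF peaks away from starts. OSKM lists kept 4 to 13 of the 82 (4.88 to 15.9%), against 14.7 to 24.4%, and the extremes were day 13 with HDAC3-YF and day 13 with FLAG. Of these 6 intervals only that at day 13 with FLAG, 9.51 to 25.3%, included the share of all such MEF peaks, 21.4%.

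**Figure D4:**
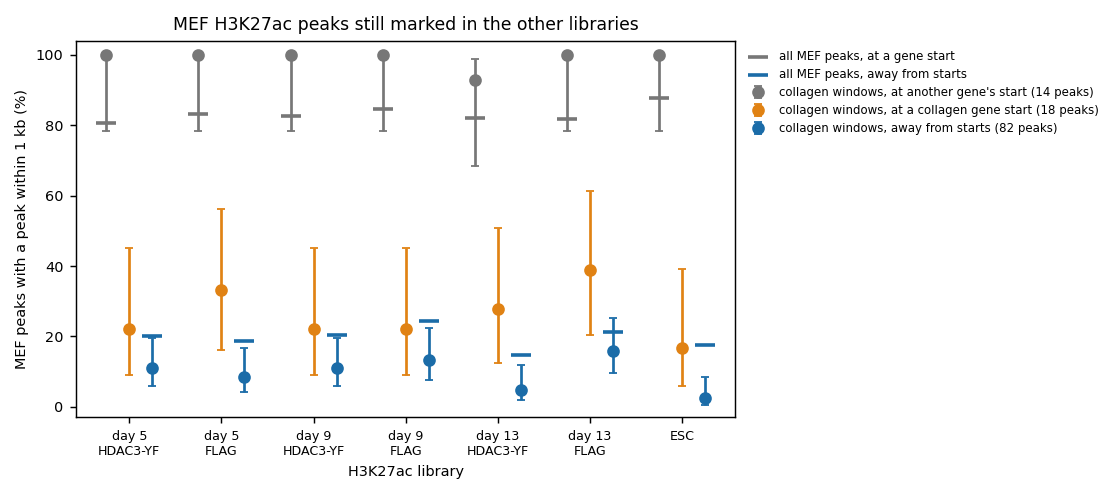
Share of MEF H3K27ac peaks in collagen windows (percent) with a peak within 1 kb in each later or other list, with 95% Wilson intervals for counting error, by place of the MEF peak; horizontal marks give the shares over all MEF peaks at gene starts and away from them. Grey points for other genes' starts sit at 92.9 to 100%, and blue points away from starts sit at 15.9% or less, below their marks in all 7 lists.

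Start sites were compared for the 35 genes with a promoter entry. A peak within 1 kb of the start was found in ESCs at 5 (14.3%), against 52.3% of 17492 genes, and in MEFs at 17 (48.6%), against 52.5%. In OSKM lists it was 5 with HDAC3-YF (background 44.7%) and 7 with FLAG (46.3%) at day 5, 5 with HDAC3-YF (45.9%) and 5 with FLAG (47.0%) at day 9, and 6 with HDAC3-YF (47.8%) and 7 with FLAG (46.2%) at day 13. Collagen starts were thus marked about as often as those of other genes in MEFs and at a lower share in the other libraries.

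Peaks with no MEF peak within 1 kb numbered 15 of 35 in ESCs (42.9%, against 52.9% of all ESC peaks), of which Col13a1 held 6. At day 5 they were 14 of 41 with HDAC3-YF (34.1%, against 31.1% of all peaks of the list) and 12 of 40 with FLAG (30.0%, against 24.8%). At day 9 they were 5 of 32 with HDAC3-YF (15.6%, against 21.5%) and 8 of 38 with FLAG (21.1%, against 21.9%). At day 13 they were 5 of 28 with HDAC3-YF (17.9%, against 22.7%) and 3 of 38 with FLAG (7.89%, 2.72 to 20.8%, against 21.6%). The collagen share was thus near that of the whole list, and only the interval at day 13 with FLAG lay below it. Of the places they marked, 11 recurred in at least 2 OSKM lists. The Col4a1 body and Col17a1 flank sites described above were in 5 and 4 lists. A place in the Col12a1 body was in both day 5 lists and at day 9 with HDAC3-YF, and one in the Col4a2 body, 3383 to 3417 bp from the Col4a1 start, was in both day 5 lists and at day 9 with FLAG. The other 7 were each in 2 lists: a pair in the Col24a1 body at day 5, one in the Col4a1 body at day 9, one in the Col4a2 body at days 9 and 13 with FLAG, one in the Col6a5 body at days 5 and 9 with HDAC3-YF, one in the Col18a1 body at day 9 with FLAG and day 13 with HDAC3-YF, and one at the start of Mrgbp in the Col9a3 window.

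By the rule of at least 2 peaks, HDAC3-YF and FLAG cultures differed at few of the 44 genes. Summed over the genes, HDAC3-YF minus FLAG came to 0 peaks for day 5, -6 for day 9 and -11 for day 13. HDAC3-YF had more peaks at 7 genes (background 14.2%) and fewer at 8 (11.0%) at day 5. On day 9 it had more at 4 (background 10.7%) and fewer at 6 (15.0%), and on day 13 more at 5 (15.5%) and fewer at 11 (16.4%). At day 5 Col4a4 alone had at least 2 more (background 2.62%), and no gene had at least 2 fewer (background 1.42%). At day 9 Col1a2, Col4a2 and Col9a3 had at least 2 fewer (6.82%, background 2.77% and 4.28% of genes of like length) and none had at least 2 more (background 1.58%). At day 13 Col4a1, Col4a2 and Col5a1 had at least 2 fewer (6.82%, background 3.53% and 5.11% of genes of like length) and none had at least 2 more (background 2.67%). Both shares rest on 3 genes, and at day 13 a pair of these have overlapping windows.

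No collagen gene had the same direction at all 3 days, and 17 had equal counts in both libraries at every day. No share of all genes is given beside these counts, so they mark no trait of collagen genes. Col4a2 was lower with HDAC3-YF at days 9 and 13 by 2 and 4 peaks and level at day 5. As shares of a list, collagen windows held 0.242% with HDAC3-YF and 0.256% with FLAG at day 5, 0.210% with HDAC3-YF and 0.231% with FLAG at day 9, and 0.196% with HDAC3-YF and 0.247% with FLAG at day 13, with intervals that overlapped at each day. Fibroblast markers summed to 10 with HDAC3-YF and 9 with FLAG at day 5, 7 with HDAC3-YF and 13 with FLAG at day 9, and 6 with HDAC3-YF and 7 with FLAG at day 13. Their part in the difference was not tested.

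NCoR and SMRT were found at a smaller share of collagen genes than of all genes. A peak of either was in the window of 16 of the 44 genes (36.4%), against a background of 48.4% of all genes and 59.9% of genes of like length. At day 9 it was 13 genes (29.5%, background 37.2%) and in ESCs 9 (20.5%, background 29.7%), with 6 genes in both. No share of all genes is given beside the 6, so that count marks no trait of collagen genes. Overlapping NCoR and SMRT peaks were merged into sites, 14 at day 9 and 9 in ESCs. Of these, 11 at day 9 and 4 in ESCs had both co-repressors.

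Day 9 sites lay within 1 kb of another gene's start in 11 of 14 cases. A place near a start was usual for these lists: in collagen windows 1 of 13 NCoR peaks (7.69%) and 2 of 12 SMRT peaks (16.7%) of day 9 were away from starts, against 15.0% and 17.6% of all peaks of those lists. In ESCs 2 of 7 NCoR peaks (28.6%) and 1 of 6 SMRT peaks (16.7%) were, against 32.2% and 35.6% of all. The genes at the 11 sites were Mff (window of Col4a3), Phykpl (Col23a1), Tmem106c (Col2a1), Cmss1 (Col8a1), Rxrb (Col11a2), Ogfr (Col9a3), Arfgap1 (Col20a1), Adprhl2 (Col8a2), Mios (Col28a1), and Uqcrc1 and Pfkfb4 (both Col7a1). Each of the 11 had H3K27ac within 1 kb in all 8 lists, except Pfkfb4 at day 13 with HDAC3-YF. In ESCs 5 of 9 sites were of this kind, at Slc19a1 (window of Col18a1), Cmss1, Ogfr, Mios and Uqcrc1, and the last 4 had a day 9 site within 1 kb.

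The single collagen start with a co-repressor was the one shared by Col4a1 and Col4a2. At day 9 NCoR and SMRT had a site there, at chr8:11312498-11312697, 208 bp from the Col4a2 start, and in ESCs SMRT alone had one at chr8:11312043-11312242, 663 bp from that start. All 8 H3K27ac lists had a peak within 1 kb of both sites. Of the 35 genes with a promoter entry, those 2 genes made 5.71% with a site at the start at day 9 (background 23.6%) and 5.71% in ESCs (background 15.4%).

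The remaining 5 sites lay away from starts. At day 9 both co-repressors had a site in the Col4a1 body at chr8:11253563-11253762, and SMRT alone had one in the Col5a1 body at chr2:28013508-28013707. Neither had H3K27ac within 1 kb in any list. In ESCs NCoR alone was found in the Col4a1 body at chr8:11247346-11247545, where the day 5 FLAG list alone had H3K27ac within 1 kb, and in the flank of Col16a1 at chr4:130100420-130100619. SMRT alone was found in the flank of Col17a1 at chr19:47629086-47629285. The last 2 had no H3K27ac within 1 kb in any list. No co-repressor peak was in the window of Col1a1, Col1a2, Col3a1, Col5a2, Col5a3 or Col6a1 to Col6a3 in either population. A window without one was usual, since any such peak was found at 16 of the 44 genes and at 48.4% of all genes.

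Genes that make, process, sense and degrade collagen, 51 in all, had 90 peaks in ESCs and 146 in MEFs. ESCs had fewer at 29 (background 22.7%), more at 10 (background 27.8%) and the same at 12. At least 2 fewer were found at 17 (background 10.3%) and at least 2 more at 2 (background 12.8%). The groups differed in their counts. The same backgrounds apply to each group, each holds few genes, and no share of genes of like length is given for them. Enzymes of chain modification and folding, 19 genes, had 49 peaks in ESCs and 54 in MEFs, with 7 genes higher and 6 lower in ESCs. Processing and cross-linking enzymes, 13 genes, had 17 in ESCs and 40 in MEFs, with 1 higher and 11 lower. Collagen receptors, 8 genes, had 14 in ESCs and 32 in MEFs, with 1 higher and 6 lower. Degrading enzymes, 6 genes, had 4 in ESCs and 7 in MEFs, and 5 fibril-binding proteoglycan and matricellular genes had 6 in ESCs and 13 in MEFs.

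The 4 genes that differed by at least 4 peaks between ESCs and MEFs were all lower in ESCs. Ddr2, a receptor kinase for fibrillar collagen, had 1 peak in ESCs and 9 in MEFs. Adamts2, which removes the amino-terminal propeptide of type I procollagen, had 2 in ESCs and 7 in MEFs. Loxl1, a cross-linking oxidase, had 3 in ESCs and 7 in MEFs, and P3h2, a prolyl hydroxylase, had 1 in ESCs and 6 in MEFs. The 2 genes with at least 2 more in ESCs were P4ha1 and P3h1, also prolyl hydroxylases and named after their values were seen, each with 3 in ESCs and 1 in MEFs. A pair of genes differed between HDAC3-YF and FLAG by at least 2 peaks in 1 direction on 2 days, and no share of all genes is given for this. Fkbp10, a folding factor of procollagen, had 5 with HDAC3-YF and 3 with FLAG at day 5, 6 with HDAC3-YF and 4 with FLAG at day 9, and 5 with HDAC3-YF and 4 with FLAG at day 13. Its window overlaps that of the neighbour P3h4, so the Fkbp10 count holds more than the gene itself. P3h4 had 5 with HDAC3-YF and 2 with FLAG at day 5, and 5 with HDAC3-YF and 4 with FLAG at day 9. Bmp1, which removes the carboxy-terminal propeptide, had 3 with HDAC3-YF and 4 with FLAG at day 5, 1 with HDAC3-YF and 3 with FLAG at day 9, and 2 with HDAC3-YF and 4 with FLAG at day 13.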

How the data were processed

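Per the submitters' processing notes, reads were aligned to mm10 with Bowtie2 2.2.0 and MACS 1.4 called peaks. Settings and depth are not given in the sources used here. Deposited intervals are 200 bp wide, in 12 lists, and the ESC input was not used. The deposited H3K27ac score, of unstated scale, was only used to rank or compare peaks within a list. The authors' NCoR and SMRT score is signed and no height, so planned score thresholds were not run there.

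Gene positions came from a RefSeq table of GRCm38.p6, and start sites from its promoter table. A peak counted at 1 bp of overlap with a window. Counting was tested on simulated peaks (Python 3.11.15, pandas 2.3.3, numpy 2.4.6, scipy 1.17.1, matplotlib 3.10.9).

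Collagen genes, lists and naming rule were chosen with earlier results of these data known. The rule named 11 fixed genes, those at least 3 peaks apart between ESCs and MEFs or 2 between HDAC3-YF and FLAG, and those with a co-repressor peak. For pathway genes it took 4 peaks, or 2 on 2 days in 1 direction. Other genes were named after their values were seen. Alternatives were other windows, stricter lists, merged peaks and, added after the data were seen, leaving out peaks at other genes' starts and pairing plasmids by day.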

Additional observations from a re-analysis of the deposited data

Results flagged for a closer look

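The difference between HDAC3-YF and FLAG cultures ran in opposite directions on different days at a pair of genes. Col1a2 had 1 more H3K27ac peak with HDAC3-YF than with FLAG at day 5, while the difference was -3 at day 9 and -1 at day 13. Col9a3 had 1 more with HDAC3-YF at day 5, a difference of -2 at day 9 and 0 at day 13. At Col9a3 the window holds the starts of Ogfr, Mrgbp and Tcfl5. The day 9 difference lay in FLAG peaks 341 bp from the start of Mrgbp and 428 bp from that of Tcfl5, and without peaks within 1 kb of other genes' starts its count was 1 in each OSKM list. With 1 library for each day and plasmid, the difference between days was not tested.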

How the results depend on the processing

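Each group had 1 library, so no replicate could be left out. With the 3 days taken as pairs, HDAC3-YF minus FLAG averaged -5.67 ± 5.51 summed peaks (SD, n = 3 days) and was below 0 on 2 of 3 days. No test is given for it, and an exact two-sided permutation test of 3 pairs cannot go below p = 0.25. No difference away from 0 changed sign under the alternatives run, but several fell to 0. HDAC3-YF minus FLAG was 0 in the top 50% of each list at Col4a4 for day 5 and at Col1a2 and Col9a3 for day 9. Within 20 kb around the start it was 0 at Col4a4 for day 5, at Col4a2 for day 9 and at Col5a1 for day 13. In that setting Col4a1 and Col4a2 stood at -1 each for day 13. At Col9a3 for day 9 it was also 0 with flanks of 5 kb, in the gene body and at equal list lengths. ESC minus MEF was 0 at Col3a1 and Col24a1 in the top 50% and at equal list lengths, and at Col15a1 around the start. Of differences of 0, Col18a1 in ESCs against MEFs came to -2 with flanks of 5 kb and in the gene body, 2 around the start and 1 at equal list lengths. For HDAC3-YF against FLAG, differences of 0 came to -2 to -1 for Col5a1 at day 5 and for the sum at day 5, and to 1 for Col5a1 at day 9 and Col9a3 at day 13. Of 114 values for the summary results, 74 stayed within 1.5 times the count or within the counting interval and 40 moved, and of 304 values for single genes 192 were equal to the main count difference and 112 were not. The number of collagen genes with at least 2 fewer peaks in ESCs than in MEFs was 22, and 14 within 20 kb around the start, 12 in the top 50% of each list and 12 at equal list lengths of 14251 peaks. In the same 3 settings it was 10, 12 and 10 at day 5 with HDAC3-YF, 9, 11 and 9 at day 5 with FLAG, 10, 12 and 12 at day 9 with HDAC3-YF, 11, 12 and 10 at day 9 with FLAG, 13, 13 and 13 at day 13 with HDAC3-YF, and 9, 9 and 10 at day 13 with FLAG. These settings hold fewer peaks by construction. In the top 50% the share of all genes with at least 2 fewer was 5.09% in ESCs and 7.06 to 9.62% in OSKM lists. The number with at least 2 more in ESCs was 1 in place of 2 with flanks of 5 kb, in gene bodies, around the start, in the top 50% and at equal lengths. Collagen genes with a co-repressor at day 9 were 5 with flanks of 5 kb, 2 in gene bodies and 3 without peaks at other genes' starts. In ESCs they were 3, 1 and 4 in those settings, 5 around the start and 4 for sites with both co-repressors. Collagen windows held 0.316% of MEF peaks with flanks of 5 kb, 0.290% in gene bodies and 0.229% around the start, and in these settings 0.0471%, 0.0314% and 0.0863% of ESC peaks. Read depth is unknown, so a missing peak does not show that the mark is absent.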
